A study of Mus musculus with 7 samples.

Results

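The genes described here are the lysine methyltransferases and demethylases whose mouse symbols begin with Kmt, Kdm or Setd and a number. This rule uses the symbol alone, but it was set with earlier results of these data known. It was met by 34 of the 21887 protein-coding genes of the RefSeq table for mm10. They were read in common monocyte progenitors (cMoPs), bone marrow cells committed to the monocyte line, of 2 genotypes at the enhancer that the labels place at -165 kb of Zeb2: the wild-type form (WT) and the variant form named DE. The libraries were made by CUTAC, in which a transposase tethered by an antibody to a histone mark cuts accessible DNA beside it. Each genotype has 2 libraries for H3K4me2, all of batch 2, and H3K4me3 has 1 library, from WT cells of batch 1, so the marks differ in batch as well as in antibody. The labels give neither the meaning of DE beyond this nor the strain, age or sex of the mice, and none says whether replicates came from separate mice. The p-values therefore measure the spread between these libraries, which may be technical.

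Methylation of histone H3 at lysine 4 is written by the KMT2 (MLL) and SET1 enzymes inside COMPASS-type complexes and removed by the LSD1 and KDM5 demethylases. H3K4me3 sits at active promoters, while H3K4me2 also marks enhancers, and both are read at the genes of the very enzymes that place and remove them. Other members act on other residues. KDM6 enzymes act on the silencing mark H3K27me3, SETD2 on H3K36 and KMT5 enzymes on H4K20. KDM3 and KDM4 enzymes act on H3K9, and some KDM4 enzymes also on H3K36.

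WT replicates 1 and 2 had 32354 and 28152 H3K4me2 peaks, DE replicates 1 and 2 had 21968 and 17079, and the H3K4me3 list had 6425. They give no read totals, so depth is not known beyond the length of each list. Throughout, fold is the authors' fold of a peak's summit over its local background within its own library, and a place is the percentile of a peak by p in its list, with low values for strong peaks. The median fold over regions shared by all 4 H3K4me2 lists was 2.99 and 3.20 on the log2 scale in WT and 2.70 and 2.48 in DE, and the shortest interval was 74 and 91 bp in WT and 109 bp in both DE lists. These differences go with the genotype, and their part in the results was not tested. Of 8 monocyte and progenitor markers, 8 had a peak within 1 kb of a gene end in each WT list and 7, all but Cx3cr1, in each DE list. The genes Csf1r, Irf8 and Cebpa were among those called in all 4. Cpa3, Fcer1a, Prg2 and Mcpt8 of mast cells, basophils and eosinophils were called in none. Of B cell markers, Cd79a had a call in DE replicate 1 alone, with fold 7.06, and Pax5 and Ebf1 had none. Of T cell markers, Cd3d and Cd4 each had a call in DE replicate 1 and in 1 of the WT lists, and Cd3e and Bcl11b had none, with a summed fold of 6.17 and 3.22 in WT and 9.33 and 0 in DE. Of erythroid and megakaryocyte markers, Klf1 was called in both DE lists and neither WT list, Epor in WT replicate 2 alone, and Gata1 and Pf4 in none, with a summed fold of 0 and 7.79 in WT and 6.82 and 6.39 in DE. The plasmacytoid dendritic cell markers Tcf4 and Bst2 were called in all 4 lists, and Siglech and Ccr9 in none. Their summed fold was 13.5 and 15.4 in WT and 9.81 and 8.42 in DE. Among 4 housekeeping genes, Gapdh, Hprt and Ppia were called in all 4 lists and Actb in none. The part of other cells in the results was not tested. The neutrophil marker S100a8 was called in both DE lists and neither WT list. Ltf was called in WT replicate 1 alone, and Camp and Ly6g in none. The summed fold at these 4 neutrophil markers was 0 to 4.10 in WT and 4.42 to 5.34 in DE. That of the 8 monocyte markers was 67.6 to 108 over the 4 lists.

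A gene was called in a list when a peak lay within 1 kb of either end of the gene. Its gene-end fold is that of the strongest such peak by p, which lay in more than 1 region across the lists for 10 of the 30 members called in any H3K4me2 list. By this rule the module had H3K4me2 at 30 of 34 genes in each WT library, at 27 in DE replicate 1 and at 23 in DE replicate 2. Over all protein-coding genes the 2 WT lists called 48.1% and 49.1%, and the 2 DE lists 44.8% and 40.2%. In all 4 lists 23 of 34 members were called (67.6%), against 37.6% of all genes. Among the others, 4 had no gene-end peak in any H3K4me2 list, against 47.6% of all genes. The remaining 7 fell into only 2 patterns: Kdm1a, Kmt5c and Kdm8 were called in both WT lists and neither DE list, and Setd3, Setd5, Kdm7a and Kmt2d in every list but DE replicate 2. No member was called in DE replicate 2 and missing elsewhere. The H3K4me3 list called 16 members (47.1%), against 20.8% of all genes. Among the 23 members with H3K4me2 in all 4 lists, H3K4me3 was called at 13, a share of 56.5% that lies near the 50.8% of all such genes.

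**Figure D1:**
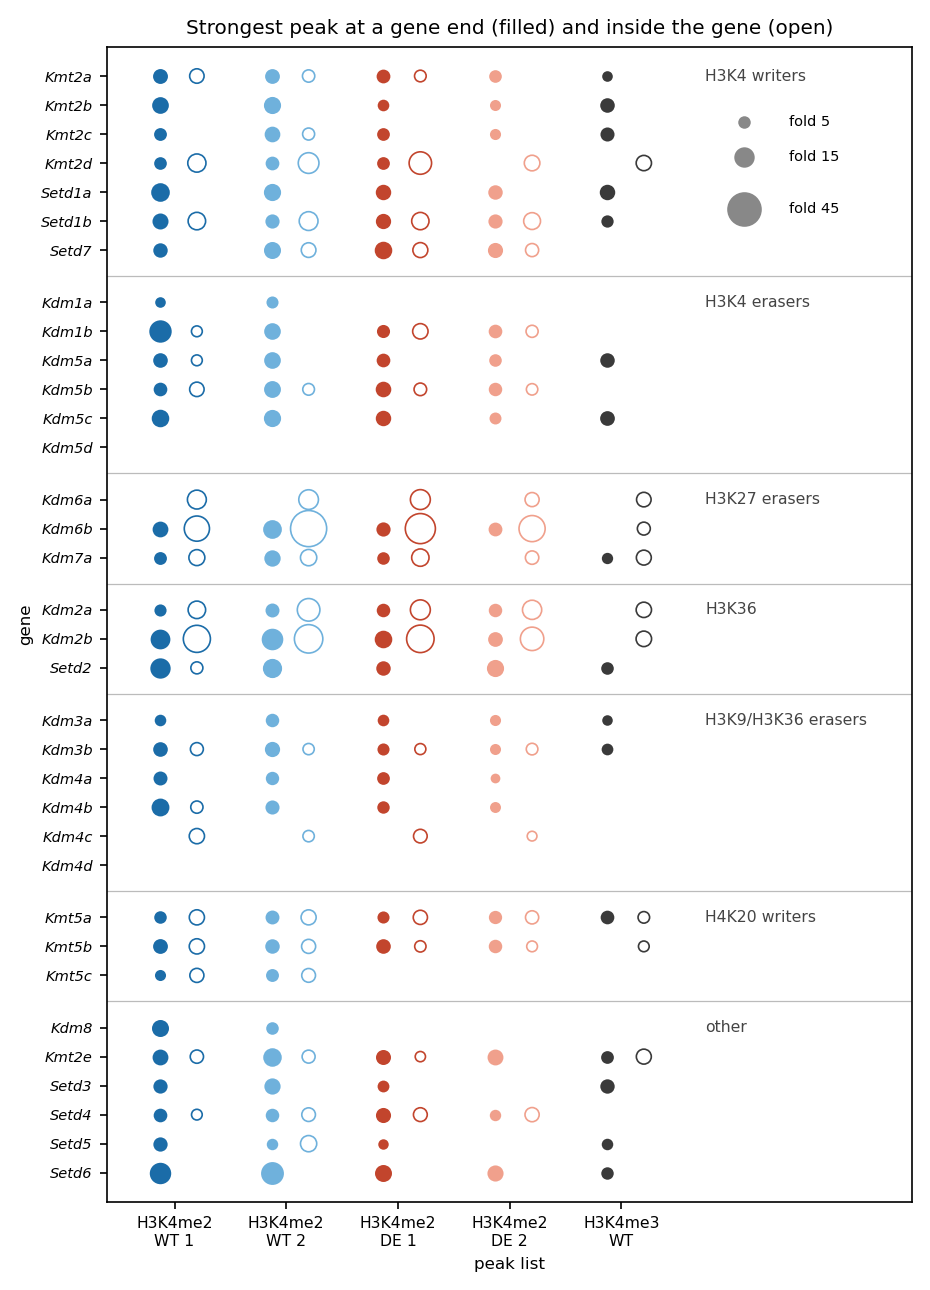
Each row is a gene of the module, grouped by substrate, and each column a peak list. Filled circles are the strongest peak within 1 kb of a gene end and open circles the strongest peak inside the gene, with an area that grows linearly with its fold over background; an empty place means no peak, as for Kdm5d and Kdm4d throughout.

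The H3K4 methyltransferases were marked almost throughout. KMT2A and KMT2B are the catalytic subunits of the MLL1 and MLL2 complexes, KMT2C and KMT2D of the MLL3 and MLL4 complexes that monomethylate enhancers, and SETD1A and SETD1B of the SET1 complexes that place most H3K4me3. Kmt2a had the second strongest gene-end peak of the module by mean place (4.52%), with folds of 7.53 and 7.41 in WT and 6.30 and 5.15 in DE. It was within the top 6.04% of every H3K4me2 list by p, although many members had higher folds. Setd1a had folds of 12.3 and 10.4 in WT and 8.17 and 7.04 in DE, so that every DE value lay below both WT values; after normalization over the libraries the difference was -0.07 on the log2 scale (SE 0.34). Setd1b, with folds of 8.87 and 6.75 in WT and 7.95 and 6.73 in DE, did not separate the genotypes. Its end lies within 1 kb of an end of Rhof, so those peaks cannot be assigned to 1 gene. Inside Setd1b lay 5 further regions, 3 of them called in all 4 lists, such as chr5:123151107-123151415 with folds of 10.7 and 12.5 in WT and 10.5 and 4.18 in DE. Kmt2b shares its peaks with the end of Zbtb32 in the same way, and its folds were 9.73 and 10.3 in WT against 4.19 and 3.68 in DE. Kmt2c, the largest member at 227061 bp, had folds of 5.74 and 8.47 in WT and 4.35 and 4.86 in DE in the region over its start. Setd7, a small enzyme that monomethylates H3K4 in vitro and many other proteins, had folds of 6.99 and 10.1 in WT and 10.8 and 7.81 in DE, and these overlapped.

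Kmt2d shows where gene ends and starts part. Its gene-end call, with folds of 5.16, 6.27 and 5.25 in both WT lists and DE replicate 1, lay 39571 bp from its RefSeq start, at its 3′ end and by an end of Prkag1. The start itself lies inside the annotated bounds and was flanked by a cluster of regions, of which 4 inside the gene were called in all 4 lists. The nearest was 122 bp from the start, with folds of 5.26, 5.03, 5.34 and 3.58 in the order WT, WT, DE, DE. Another, 987 bp from the start, had folds of 8.13 and 15.4 in WT and 18.4 and 8.31 in DE. In the nearest region, 122 bp from the start, the peak of DE replicate 2 had its summit 396 bp from the start. The summits of WT replicates 1 and 2 lay 176 and 538 bp from it, in peaks that did not overlap. The 250 bases before the start held a peak in replicate 1 of each genotype alone. The same cluster held the widest H3K4me3 peak of the module, 1020 bp at fold 7.97, whereas the median width was 161 bp over the 47 H3K4me3 peaks of the module and 167 bp over all H3K4me3 peaks. Only 0.0623% of all H3K4me3 peaks were at least as wide. The next widest were 512 bp inside Kmt2e, 355 bp inside Kdm2a, 353 bp at the end of Kmt2e and 336 bp at Kmt2a.

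Among the H3K4 demethylases, Kdm1b and Kdm1a lay far apart. KDM1A (LSD1) and KDM1B (LSD2) are the flavin-dependent demethylases of H3K4me1 and H3K4me2, and LSD1 acts with CoREST and GFI1 in blood cells. Kdm1b had the strongest gene-end peak of the module by mean place (4.34%), with folds of 18.3 and 9.64 in WT and 5.59 and 6.15 in DE. An end of Tpmt lies within 1 kb of the same peaks, so they cannot be assigned to 1 gene. After normalization over the libraries the difference at Kdm1b was -0.67 on the log2 scale (SE 0.38, limma adjusted p = 0.541). Kdm1a had a single weak region over its start, called with fold 3.32 in WT replicate 1 (place 77.8%) and 4.58 in WT replicate 2 (place 61.5%) and in neither DE list, and no H3K4me3 peak. Of the JmjC demethylases of the KDM5 family, which remove H3K4me3, Kdm5a, Kdm5b and Kdm5c were called in all 4 lists. Kdm5a, whose end neighbours that of Ccdc77, had gene-end folds of 7.20 and 9.67 in WT and 6.21 and 5.08 in DE, and 4 separate H3K4me3 peaks. Kdm5b had folds of 6.17 and 9.90 in WT and 8.36 and 5.97 in DE. The X-linked Kdm5c had a region over its start with folds of 7.42 and 5.90 in WT and 8.16 and 5.48 in DE and another upstream, described below, each with an H3K4me3 peak. Its Y-linked homologue Kdm5d had no peak in any of the 5 lists, and neither did Uty, the Y-linked homologue of Kdm6a. The Y chromosome held 46 and 29 H3K4me2 peaks in WT and 26 and 20 in DE in all, and the sex of the donors of the libraries is not given in the labels.

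The H3K27 demethylases held the most densely marked gene of the module. KDM6B (JMJD3) is induced in activated macrophages and removes H3K27me3, as does the X-linked KDM6A (UTX), a partner of the KMT2C and KMT2D complexes. Kdm6b spans only 21860 bp and held 12 separate regions inside besides 1 at its end, of which 7 inside were called in all 4 lists. This is 5.49 regions per 10 kb, a density reached by 0.363% of the genes that have any region. The strongest, chr11:69418569-69419269, had folds of 23.4 and 49.1 in WT and 33.8 and 25.2 in DE with overlap between the genotypes. Those were the highest folds of any member region in every H3K4me2 list except WT replicate 1, where a region of Kdm2b led. It carried an H3K4me3 peak of fold 5.42. Kdm6a had no gene-end call because its annotated bounds begin upstream of its listed start, but the region over that start (chrX:18162222-18162678) was called in all 5 lists. H3K4me2 folds were 12.7 and 13.8 in WT against 14.2 and 6.62 in DE, and the H3K4me3 fold was 7.11. Kdm7a, whose product acts on H3K9 and H3K27, had its start region called with folds of 5.35, 6.62 and 5.06 in every list but DE replicate 2. A second region 1149 bp away was called in all 4, with folds of 8.76 and 9.20 in WT and 10.6 and 5.89 in DE.

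The H3K36 genes Kdm2a and Kdm2b were marked at inner regions as strongly as at their ends. KDM2A and KDM2B bind unmethylated CG-rich DNA through a CXXC domain, KDM2B recruits a variant Polycomb complex there, and both genes are known to give a short protein without the JmjC domain from an internal start. Setd2, the methyltransferase of H3K36me3, had gene-end folds of 14.9 and 13.2 in WT and 7.04 and 10.3 in DE, with every DE value below both WT values; the normalized difference was -0.18 (SE 0.35). Kdm2b, with 8 regions inside besides those at its end, had 3 zones. At its outer starts the region chr5:122989050-122989598 had folds of 14.0 and 17.0 in WT and 8.40 and 7.35 in DE, and no H3K4me3 peak. At its inner starts, the nearer of them 88903 bp into the gene, chr5:122900079-122900587 had folds of 14.7, 18.6, 12.3 and 9.51 in the same order and an H3K4me3 peak of fold 5.44. A further H3K4me3 peak of fold 8.21 had its summit 1105 bp from the nearest inner start. Between them, 36472 bp from the nearest listed start, chr5:122951164-122952035 had the highest folds of the gene, 27.2 and 30.0 in WT and 28.0 and 20.1 in DE, again without an H3K4me3 peak. Kdm2a, for which the promoter table lists no start, had 5 regions inside, 2 of them called in all 4 lists. The stronger was chr19:4332714-4333030, with H3K4me2 folds of 7.93 and 18.6 in WT against 14.2 and 13.2 in DE, and an H3K4me3 peak of fold 8.01. Of the regions at its end, which neighbours 9430078G10Rik, chr19:4397023-4397857 had folds of 10.7 and 5.69 in WT and 6.04 and 4.46 in DE. This region also carried an H3K4me3 peak of fold 4.37, which lay outside the 1 kb window and so gave no gene-end call.

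**Figure D2:**
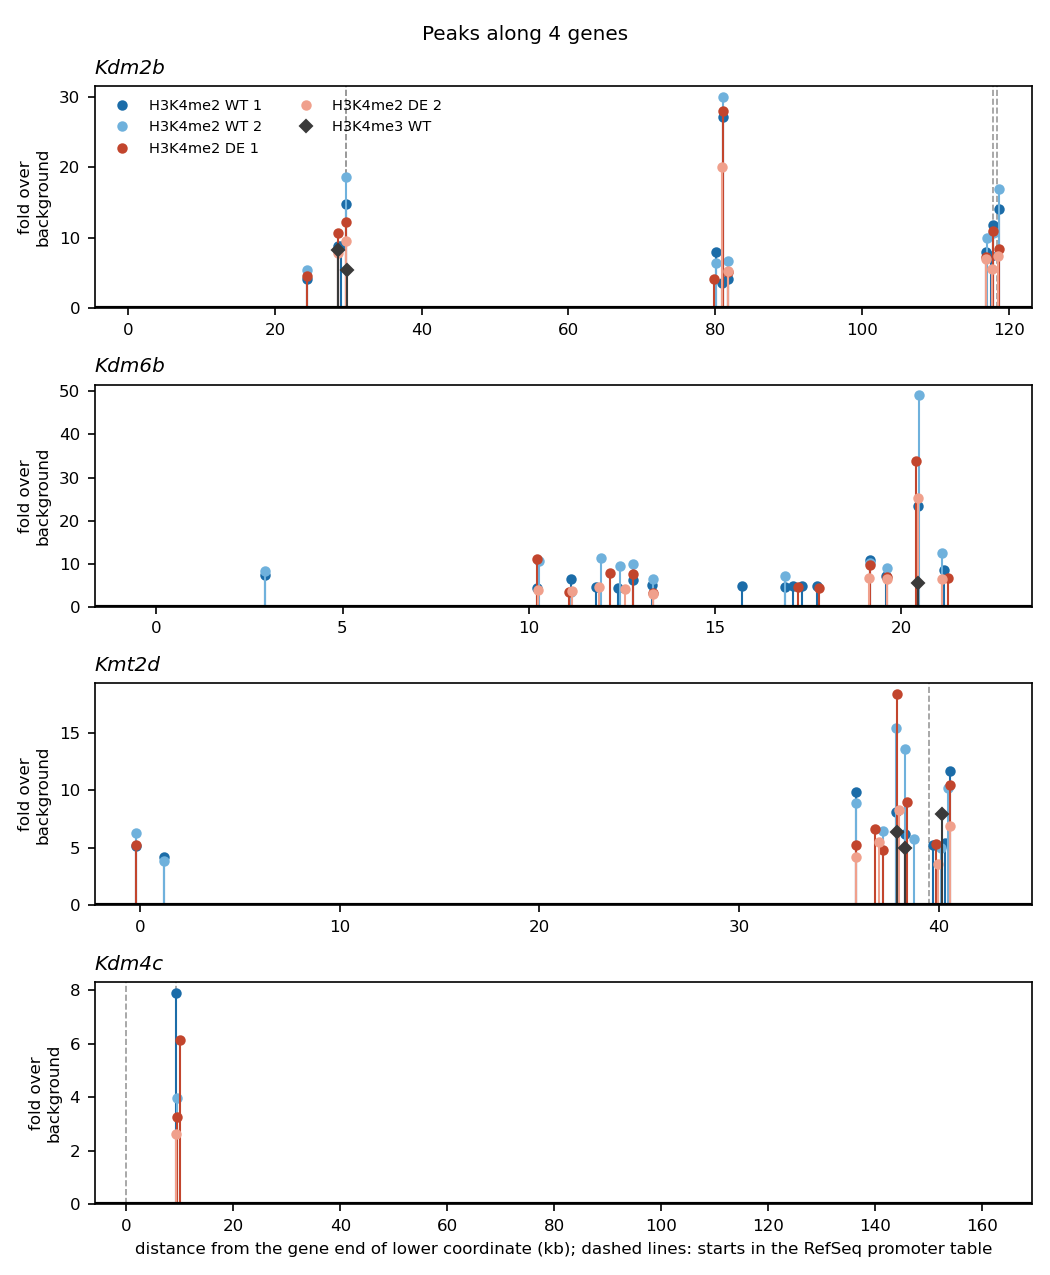
Peaks along Kdm2b, Kdm6b, Kmt2d and Kdm4c, drawn as lines whose height is the fold over background, against the distance in kb from the gene end of lower coordinate. Dashed lines are RefSeq starts, which the table gives for 3 of these genes and not for Kdm6b. Diamonds are H3K4me3 peaks: in Kdm2b they lie at the inner starts and not at the outer ones, and in Kdm4c there are none.

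Of the 6 demethylases of H3K9, some of which also act on H3K36, 4 were called at a gene end in every H3K4me2 list and 2 in none. KDM3A and KDM3B remove H3K9me1 and H3K9me2, and the KDM4 enzymes H3K9me3 and, for some of them, H3K36me3. Kdm3a, Kdm3b, Kdm4a and Kdm4b were called in all 4 lists, with strongest gene-end folds between 2.64 (Kdm4a in DE replicate 2) and 11.3 (Kdm4b in WT replicate 1). Kdm4b, the eighth strongest member by mean place (17.5%), had folds of 11.3 and 6.63 in WT against 4.93 and 3.61 in DE. The normalized difference was -0.58 on the log2 scale (SE 0.37), short of the threshold of the test over all regions. Only Kdm3a and Kdm3b of these had H3K4me3. Kdm4d had no peak in any list, and its start holds 14 CG dinucleotides in the 250 bases before it. Kdm4c had none at its gene ends, but its inner start, 9382 bp into the gene, was covered by a region called in all 4 lists, with folds of 7.91 and 3.98 in WT and 3.26 and 2.62 in DE.

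The windows before the starts of Kdm2b and Kdm4c are shown because the lists part the starts of 1 gene. Each is the 250 bases before a start on its own strand, from RefSeq with coordinates of GRCm38.p6 (mm10), written 5′ to 3′, and CG dinucleotides are in capitals.
Kdm2b outer start (chr5:122989100-122989349, minus strand): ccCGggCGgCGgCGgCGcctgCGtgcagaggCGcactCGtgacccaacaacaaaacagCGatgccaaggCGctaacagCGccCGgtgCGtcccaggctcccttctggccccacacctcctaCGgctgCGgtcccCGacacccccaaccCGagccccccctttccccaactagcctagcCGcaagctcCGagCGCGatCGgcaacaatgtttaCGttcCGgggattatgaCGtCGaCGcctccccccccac
Kdm2b inner start (chr5:122900368-122900617, minus strand): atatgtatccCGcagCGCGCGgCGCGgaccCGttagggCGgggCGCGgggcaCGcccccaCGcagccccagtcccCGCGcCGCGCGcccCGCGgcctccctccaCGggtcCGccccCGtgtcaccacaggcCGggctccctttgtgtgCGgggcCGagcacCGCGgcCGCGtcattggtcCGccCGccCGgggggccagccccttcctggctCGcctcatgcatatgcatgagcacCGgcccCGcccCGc
Kdm4c outer start (chr4:74242247-74242496, plus strand): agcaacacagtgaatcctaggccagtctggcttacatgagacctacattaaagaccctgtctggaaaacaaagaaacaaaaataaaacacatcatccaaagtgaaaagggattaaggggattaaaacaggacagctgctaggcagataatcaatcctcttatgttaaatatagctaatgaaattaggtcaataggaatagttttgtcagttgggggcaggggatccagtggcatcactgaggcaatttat
Kdm4c inner start (chr4:74251629-74251878, plus strand): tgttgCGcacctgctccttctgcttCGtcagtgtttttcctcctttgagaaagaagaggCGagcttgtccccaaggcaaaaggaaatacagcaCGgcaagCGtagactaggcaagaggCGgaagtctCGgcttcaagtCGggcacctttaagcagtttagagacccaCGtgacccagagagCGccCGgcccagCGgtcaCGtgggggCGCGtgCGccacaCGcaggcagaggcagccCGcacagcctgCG
The outer and inner windows of Kdm2b hold 27 and 36 CG dinucleotides, and both had H3K4me2 in all 4 lists, but only the inner had H3K4me3. The outer window of Kdm4c holds 0 and had no peak in any of the 5 lists, while its inner window holds 19 and had H3K4me2 in all 4.

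The H4K20 enzymes and the members with other or unsettled substrates completed the set. KMT5A places H4K20me1, which KMT5B and KMT5C extend. Kmt5a and Kmt5b were called in all 4 lists, with strongest gene-end folds of 4.62 to 6.43 and 5.99 to 7.42. Kmt5a has 3 listed starts, all covered by regions called in all 4 lists and by H3K4me3, and 4 regions inside. Kmt5c was called only in WT, at its start with fold 3.70 in WT replicate 1 and 5.40 in WT replicate 2, and 1 region inside it was likewise called only in WT, with folds of 6.58 and 6.27. Setd6, a methyltransferase of RelA, and Kmt2e, whose product reads H3K4me3 and has no settled enzymatic activity, were called in all 4. Setd6 had folds of 16.6 and 19.1 in WT and 10.1 and 8.99 in DE, and its end neighbours Ndrg4. Kmt2e had folds of 8.64 and 12.2 in WT and 7.65 and 8.71 in DE. Setd4 was called in all 4, with folds of 6.17 and 6.03 in WT and 7.76 and 4.00 in DE. Setd3, an actin histidine methyltransferase whose end neighbours Ccnk, had folds of 6.06, 9.15 and 4.37 over its start in WT, WT and DE replicate 1. Setd5 had folds of 3.58, 4.41 and 3.20 in the same 3 lists in a region 27339 bp from the only start listed for it. Kdm8 had a region over its start with folds of 6.77 and 5.07 in WT, and in WT replicate 1 alone a broader peak of fold 10.1 at its other end.

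The call in both WT and neither DE list is shown in sequence for Kdm1a, Kdm8 and Kmt5c beside Setd6, which was called in all 4 lists and is among the 8 strongest. The windows, build and capitals are as above.
Kdm1a (chr4:136602724-136602973, minus strand): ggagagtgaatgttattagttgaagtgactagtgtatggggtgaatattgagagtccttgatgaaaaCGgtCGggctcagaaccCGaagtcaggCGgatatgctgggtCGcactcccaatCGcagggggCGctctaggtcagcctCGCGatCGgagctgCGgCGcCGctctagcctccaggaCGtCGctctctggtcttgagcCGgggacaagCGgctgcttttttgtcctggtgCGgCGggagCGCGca
Kdm8 (chr7:125444370-125444619, plus strand): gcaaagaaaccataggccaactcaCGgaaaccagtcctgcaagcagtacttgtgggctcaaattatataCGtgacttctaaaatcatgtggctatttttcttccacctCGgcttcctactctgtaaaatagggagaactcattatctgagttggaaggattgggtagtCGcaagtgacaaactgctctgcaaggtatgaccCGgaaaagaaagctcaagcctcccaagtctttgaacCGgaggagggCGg
Kmt5c (chr7:4739877-4740126, plus strand): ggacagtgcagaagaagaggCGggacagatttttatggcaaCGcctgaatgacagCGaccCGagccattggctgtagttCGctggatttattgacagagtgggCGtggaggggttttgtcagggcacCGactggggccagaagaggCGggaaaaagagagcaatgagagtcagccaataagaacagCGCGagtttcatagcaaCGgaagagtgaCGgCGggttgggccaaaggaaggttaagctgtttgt
Setd6 (chr8:95715663-95715912, plus strand): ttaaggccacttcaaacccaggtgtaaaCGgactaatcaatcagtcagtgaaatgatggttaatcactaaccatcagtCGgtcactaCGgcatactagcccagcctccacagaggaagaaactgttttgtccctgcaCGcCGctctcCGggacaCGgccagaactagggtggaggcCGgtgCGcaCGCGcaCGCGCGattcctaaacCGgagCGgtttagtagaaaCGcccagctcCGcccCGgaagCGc
They hold 21, 7, 13 and 20 CG dinucleotides, so the windows with calls in WT alone did not share a count. Among genes called in both WT lists, 3 of 30 members (10%) were called in neither DE list, against 6.68% of all genes, and 0 of 23 members called in both DE lists were called in neither WT list, against 0.578%. The DE lists are shorter. When every list was reduced to its 17079 strongest peaks, only Kdm8 kept the pattern, and Kdm2a showed the reverse, called in both DE and neither WT list. Over all genes the 2 patterns then took 3.26% and 2.89%. The WT gene-end peaks of Kdm2a had places of 70.5% and 60.7% in the deposited lists. Stronger WT peaks in chr19:4397023-4397857, with places of 11.8% and 19.2%, stopped just short of its 1 kb window. That region was called in all 4 lists. Without DE replicate 1 the WT pattern covered 7 of 30 members (23.3%), against 16.1% of all genes, the further ones being Setd3, Setd5, Kdm7a and Kmt2d.

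Members were also compared by region, the merged union of overlapping H3K4me2 intervals. The module held 130 of 41015 regions, 65 at gene ends and 65 inside the genes, in 32 of the 34 members. Of these, 61 were called in all 4 lists (46.9%), against 29.7% of all regions, and 44 carried an H3K4me3 peak (33.8%), against 14.2%. Member regions lie at or inside genes by the rule, whereas all regions include those away from genes, so these shares compare unlike places. Within the module, 29 of the 65 gene-end regions and 15 of the 65 inner ones carried H3K4me3. The same shares over all gene-end and all inner regions are not given here, so these counts describe the module alone. Among the 93 member regions called in both WT lists, 19 in 13 genes were called in neither DE list (20.4%), against 18.5% of all regions. At gene ends the numbers were 11 of 54 (20.4%), against 11.7% of all gene-end regions. No member region was called in both DE and neither WT list, against 3.33% of all regions called in both DE lists. The 19 regions were weaker and narrower in WT than the 61: their median fold was 4.62 and 5.40 in the WT libraries, against 7.42 and 9.0, and their median width 179 bp against 421 bp, although a region called in more lists is also the union of more intervals. Of the 19, 9 lay within 1 kb of a region of the same gene called in all 4 lists. The highest WT folds among them were 9.23 and 9.06, at Setd1b (chr5:123142086-123142275). With lists of equal length 6 of 55 member regions had the pattern, against 8.17% of all regions, and without WT replicate 2 or DE replicate 1 it was 31 of 109 (28.4%) and 31 of 93 (33.3%), against 41.4% and 33% of all regions.

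The size of the H3K4me2 signal was then tested between genotypes at the 61 member regions called in all 4 lists. The log2 of the highest fold in each region was quantile-normalized over the 4 libraries and fitted with limma over all 12166 regions called in all 4 lists, with Benjamini-Hochberg adjustment over them. No member region passed an adjusted p of 0.05 in either direction, and neither did any other region of the fit (0% lower and 0% higher in DE). Regions not called in all 4 lists, such as the 19 member regions called in both WT and neither DE list, did not enter it. Quantile normalization also removes a shift common to all regions. At an unadjusted p under 0.05, limma gave 6 of the 61 member regions, 2 lower and 4 higher in DE, and 1298 of all 12166 (10.7%). The median difference was 0.06 on the log2 scale for the member regions and -0.01 for all regions, and 27 of the 61 lay below 0 (44.3%), against 50.4% of all. The median standard error of a member region was 0.34 on this scale, and 2 libraries per genotype set that error; a difference that missed the threshold is not shown to be absent.

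The 6 member regions with the largest differences lay in 5 genes. Highest in DE was chr5:123142828-123143105 at the end of Setd1b, with folds of 3.39 and 3.22 in WT and 3.67 and 6.95 in DE and a difference of 1.06 (SE 0.35, limma adjusted p = 0.335). That difference rests largely on DE replicate 2, and it was 0.48 without that library. The WT peaks of this Setd1b region had places of 97.4% and 98.8%, at the weak end of both WT lists. A region inside Setd4, chr16:93585980-93586290, had folds of 3.39 and 6.14 in WT and 6.32 and 6.72 in DE (difference 1.02, SE 0.36, limma adjusted p = 0.356). Its place was 97.4% in WT replicate 1 and 65.0% in WT replicate 2. Kdm2a had a region at its end with folds of 4.68 and 6.49 in WT and 7.66 and 5.96 in DE (0.78, SE 0.34) and the inner region named above (0.73, SE 0.34), with limma adjusted p of 0.442 and 0.453. The lowest in DE was chr7:30588721-30589685 at the shared end of Kmt2b and Zbtb32, with folds of 9.73 and 10.3 in WT and 4.19 and 3.84 in DE and a difference of -0.84 (SE 0.34, limma adjusted p = 0.406). Its WT and DE values did not overlap before or after normalization. The upstream region of Kdm5c, chrX:152232729-152233004, followed with folds of 10.8 and 10.4 in WT and 4.70 and 4.50 in DE (-0.72, SE 0.34, limma adjusted p = 0.467). The neighbouring region over the start of Kdm5c had a difference of 0.48 (SE 0.35) in the other direction. The differences of the Setd4 region and of the inner Kdm2a region moved with the WT library left out. Without WT replicate 2, limma gave differences of 1.32 and 1.19 with adjusted p of 0.0408 and 0.0323, and these 2 of 63 member regions (3.17%) stood against 1.56% of all regions higher and 1.79% lower in DE. Without WT replicate 1 the same differences were 0.63 and 0.25, with limma adjusted p of 0.727 and 0.904. Each of these fits has a single WT library, which is assumed to vary like the DE pair.

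**Figure D3:**
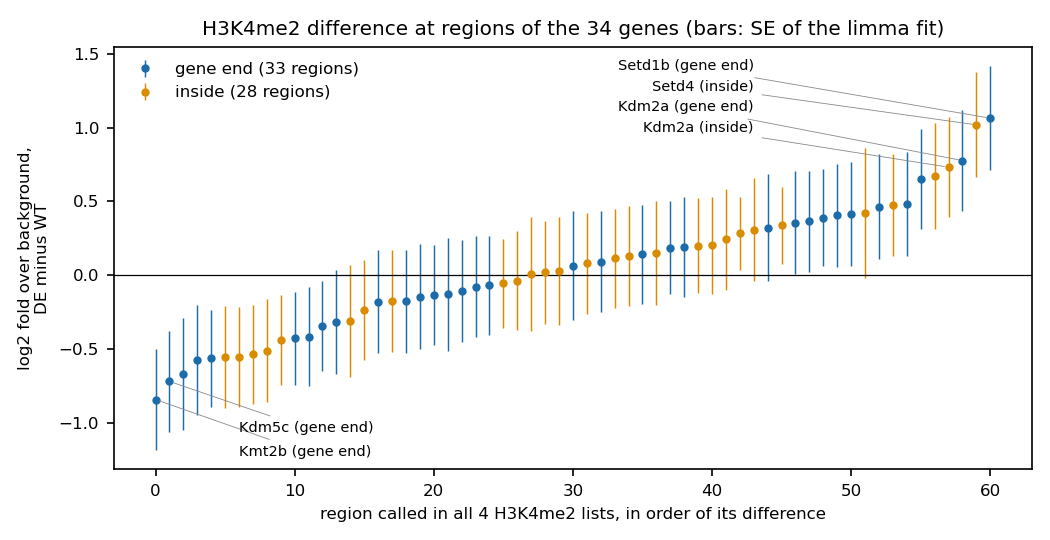
Difference of log2 fold between DE and WT (y axis) for the 61 member regions called in all 4 H3K4me2 lists, in order of size (x axis), with bars of 1 standard error from limma. Blue points are regions at gene ends and orange points regions inside genes; the 6 with the largest differences are named, and none passed an adjusted p of 0.05.

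The sequence before the listed starts was compared with the calls. The promoter table held 36 starts of 26 members, and 21263 starts of all protein-coding genes. Starts of 1 gene can overlap and are not independent. The window before the start had a peak in all 4 H3K4me2 lists at 19 of the 36 (52.8%), against 31.1% of all starts, in none at 5 (13.9%), against 52.1%, and in the H3K4me3 list at 18 (50%), against 18.1%. The member windows held a median of 20 CG dinucleotides, against 10 over all starts. Over all starts the median was 3 in windows without an H3K4me2 call, 12, 14 and 16 in those called in 1, 2 and 3 lists, and 19 in those called in all 4. Within the module the 5 windows without a call held 0 to 14, and belong to Kdm3a, Kdm4c, Kdm4d, Kdm5d and Setd5. For Kdm3a and Kdm4c they are 1 of several listed starts. The most CG-rich, at Kdm7a (56) and Kmt2c (48), were called in every H3K4me2 list but DE replicate 2.

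**Figure D4:**
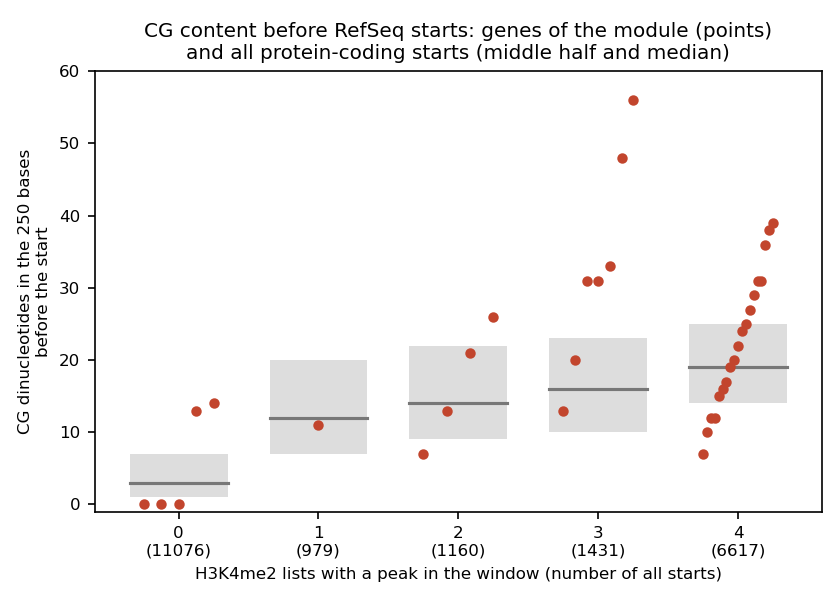
Number of CG dinucleotides in the 250 bases before a RefSeq start (y axis) by the number of H3K4me2 lists with a peak in that window (x axis). Grey boxes span the quartiles of all protein-coding starts with the median as a line, and red points are the 36 starts of the module; the 3 points at 0 belong to starts without a call.

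Motifs were searched as letters on both strands of the same windows. CACCTG, a form of the E-box CANNTG that E proteins and ZEB factors can bind, was found before 5 of 36 member starts (13.9%), against 16.9% of all starts, in Kdm4c, Kmt5a, Kmt5b, Setd1a and Setd6. All E-boxes CANNTG, which include these, were found before 18 (50%), against 62.8%. The GC box GGGCGG was found before 22 (61.1%), against 42.6%. CCGGAAGT, an ETS site, was found before 1 (Setd4), and TATAAA before 1 (Kdm5d), against 3.79% and 11.6% of all starts.

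Partners of these enzymes were read from the same lists by gene end, beside the 37.6% of all genes called in all 4 lists. Of 12 subunits of COMPASS and MLL complexes, 10 were called in all 4 lists and 8 by H3K4me3. The H3K4me3 list called 20.8% of all genes and 50.8% of the genes called in all 4 H3K4me2 lists. The shared subunit Wdr5 had folds of 11.5 and 17.7 in WT and 15.6 and 10.9 in DE, and Rbbp5 8.80 and 11.3 in WT and 6.17 and 5.54 in DE. Men1, the menin subunit specific to the KMT2A and KMT2B complexes, had 15.7 and 28.7 in WT and 18.2 and 17.0 in DE. Ash2l and Dpy30 had no gene-end call in any list. Of 9 partners of LSD1, 8 were called in all 4 lists, while Kdm1a itself was called in WT alone. Its WT peaks were weak, with places of 77.8% and 61.5%, and with lists of equal length Kdm1a was called in none. Rcor1, the CoREST scaffold, had folds of 25.8 and 29.1 in WT and 14.6 and 10.6 in DE, with both DE values below both WT values, and Gfi1b alone was called in none. The folds of partners were not normalized over the libraries, and the median fold over regions shared by all 4 lists was also lower in both DE libraries. Of 10 Polycomb repressive complex 2 genes, 9 were called in all 4, among them Ezh2 with folds of 20.1 and 14.5 in WT and 11.0 and 8.62 in DE, and Rbbp7 (6.14 and 3.77) was called in WT alone. Of 16 methyltransferases with other symbols, 12 were called in all 4. Suv39h1, Setdb1 and Smyd2 were missing only in DE replicate 2, with WT folds of 6.11 to 8.68, while the only lists that called Nsd1 were WT replicate 2 and DE replicate 1. Of 9 JmjC proteins with other symbols, 5 were called in all 4, Riox2 (6.09 and 6.11) and Hif1an (4.61 and 5.30) in WT alone, and Uty and Hr in none.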

How the data were processed

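Per the labels' protocols, CUTAC used a CUT&Tag kit with tagmentation in the absence of salt. Peak lists of 5 of the 7 samples were used, each from a single library; the samples without a list here were not analysed here. Peaks come from MACS2 2.2.9.1 on mm10, after Trimmomatic, Bowtie2, SAMtools and Picard, all named in the submitters' processing notes without settings; a control library for the calls is not given in the sources used. Each deposited entry holds a score, a linear fold ratio of the summit over its local background, −log10 of p and of q, and a summit offset, all the authors' own values. The lowest −log10 q in the deposited lists was 1.00 to 1.02. The track line of DE replicate 1 names DE replicate 2, and the record of the files was followed.

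Entries with the same interval were counted once by their strongest p, on the 19 autosomes, X and Y. Gene bounds and starts came from RefSeq tables of GRCm38.p6. The table of bounds gives no strand, so both gene ends were used, and the promoter table lists no start for Kdm2a, Kdm3b, Kdm4b, Kdm5a, Kdm6b, Kmt2b, Kmt2e and Setd1b. Coordinates count from 1. limma 3.58.1 (R 4.3.3) with a trended prior compared genotypes within batch 2, without a replicate block; the code was tested on simulated data. The members and lists were chosen with earlier results of these data known. Values were given for members not called alike in all 4 lists, the 8 strongest by mean place, the 6 largest differences, members with 3 or more inner regions, the 5 widest H3K4me3 peaks, all H3K4 writers and erasers, and at most 6 partners per list; other values were chosen after they were seen. Alternatives were windows of 500 bp and 2 kb, starts alone, lists of equal length, peaks with −log10 q from 5 up, 50% cover, merging within 500 bp, other normalizations, autosomes alone, the block and leaving out each library. Those for members called in WT alone were chosen after seeing the data.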

Additional observations from a re-analysis of the deposited data

How the results depend on the processing

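With a −log10 q of at least 5, the members called at a gene end in all 4 H3K4me2 lists went from 23 to 13 and those with H3K4me3 from 16 to 10; with other windows, starts alone, lists of equal length or merged regions the first stayed between 18 and 26 and, with windows and starts, the second between 14 and 21. Leaving out 1 library gave 23 to 27 members. The members called in both WT and neither DE list went from 3 to 1 with lists of equal length, and were 3 to 7 when 1 library was left out. The member regions with that pattern went from 19 to 11 with the q limit, 6 with lists of equal length, 9 when merged within 500 bp and 11 at gene ends alone, and were 20 to 31 when 1 library was left out. With the limma fit, 0 member regions were lower in DE under any alternative run, and 0 were higher except without WT replicate 2, which gave 2 of 63 (Setd4 and Kdm2a), beside 223 lower and 195 higher of all 12470 regions, with the spread taken from the DE pair alone. The replicate numbers share only a number: the deviations of same-numbered libraries correlated at 0.01. With the replicate block, limma called 0 member regions lower and 0 higher, and 43 lower and 19 higher of all regions. All 57 alternative values of the 6 largest differences kept their sign, but not every alternative gave a value for each region. With a −log10 q of at least 5, only the inner Kdm2a region had a value. With lists of equal length, the Setd1b, Setd4 and Kdm2a end regions had none. Merging within 500 bp brought the difference of Setd1b from 1.06 to 0.22, of the Kdm2a end from 0.78 to 0.15 and of Kdm5c from -0.72 to -0.16. Leaving out WT replicate 1 brought the inner Kdm2a region from 0.73 to 0.25 and Setd4 from 1.02 to 0.63. The lists differ in length and give no read totals, so the part of depth in the calls was not tested.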
